A study of Mus musculus with 5 samples.

Results

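Nodal is a secreted ligand of the TGF-β superfamily that pluripotent cells and the early embryo use to signal to themselves and their neighbours. It binds type I and type II activin receptors together with the coreceptor Cripto, encoded by Tdgf1, and the activated receptors phosphorylate Smad2 and Smad3, which enter the nucleus with Smad4 and act with DNA-binding partners such as Foxh1. The secreted inhibitors Lefty1, Lefty2, and Cer1 limit the signal, and because Lefty1 and Lefty2 are themselves targets of Nodal signalling they form a classical negative feedback loop, well described in mouse ES cells.

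The genes described here are 9 named members of this pathway: the ligands Nodal and Gdf3, the coreceptor gene Tdgf1, the type II receptor gene Acvr2b, the inhibitors Lefty1, Lefty2, and Cer1, the effector Smad2, and the transcription factor Foxh1. They were chosen by symbol, and all 9 were found among the 24421 genes listed in each of the 2 deposited tables. RNA-seq was performed on 5 mouse libraries, 1 per group, so no difference below has a replicate check, an error, or a p-value. The first table holds MEFs (fibroblasts grown from CF-1 embryos), iPSCs, and untreated V6.5 cells, a mouse ES cell line, and the second holds V6.5 cells stably expressing a nontargeting control shRNA (NTC) and V6.5 cells stably expressing an shRNA against Gldc (shGldc), the glycine decarboxylase of the glycine cleavage system. The column taken as shGldc is headed sh3 in its table and was matched by the labels of the only Gldc shRNA sample, and no hairpin of that name is among the mouse Gldc hairpins in the list used here. The labels describe the stem cells as grown without feeders, in serum replacement with leukaemia inhibitory factor, and the MEFs as grown in serum, while the study's methods also describe stem cell culture on feeders. No treatment was shared by all groups, the second table's libraries share the shRNA vector, and the labels do not say how the iPSC line was made.

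Levels are given in FPKM, a fragment count divided by transcript length and by library depth, so that different genes can be compared per length. A log2 ratio is a difference of log2(FPKM + 0.1), and a gene is called higher or lower when it differed at least 2-fold on this scale and reached an FPKM of 1 in a library of the comparison. The depth, estimated from the spacing of low values, was 22100000 to 29000000 fragments per library, uncertain by a factor of 2 in the second table. Gldc was at 74.7 in NTC and 2.07 in shGldc cells. The 6 pluripotency markers summed to 1.60 in MEFs and to between 1831 and 2618 in the other libraries, and the 6 fibroblast markers to 6929 in MEFs. In untreated V6.5 cells the fibroblast markers summed to 46.7 (0.674% of the MEF sum), against 1.853 to 10.97 in iPSCs, NTC, and shGldc cells. At that share, the MEF library would bring 0.0078 FPKM of Lefty1 and 0.0425 of Smad2 into the V6.5 value.

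Of the 9 genes, 8 were detected, and all 8 but Smad2 distinguished untreated V6.5 cells from MEFs. Tdgf1 was the most abundant member in every stem cell library, followed by Nodal in 2 of the 4. Cer1, a secreted antagonist best known from the anterior endoderm of the embryo, was listed at 0 in all 5 libraries, where 3 fragments would have given an FPKM of 0.0596 to 0.078. The other 8 genes were at an FPKM of at least 1 in 32 of their 40 values.

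**Figure D1:**
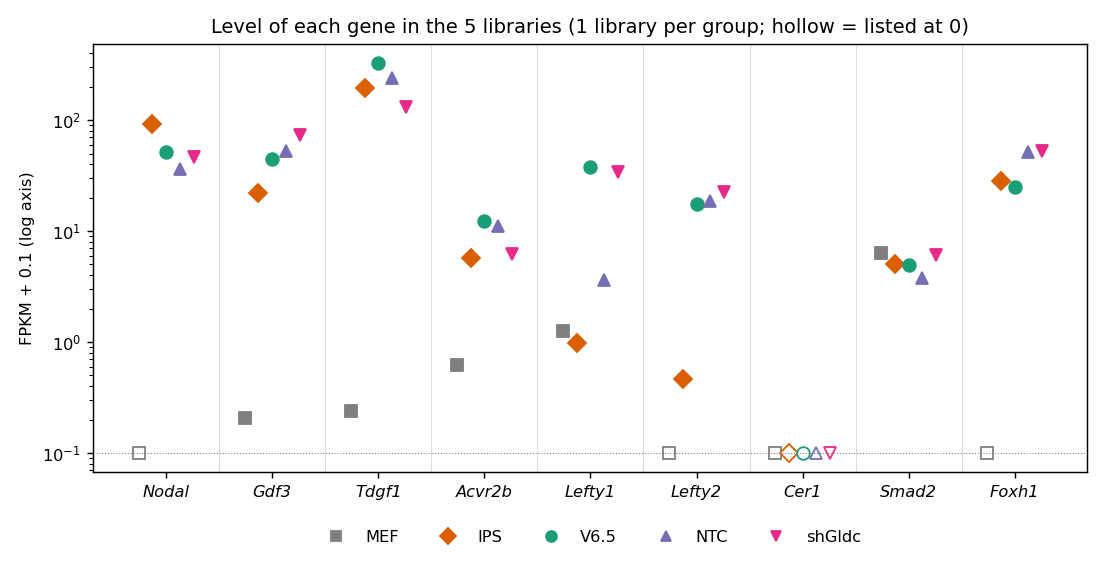
FPKM + 0.1 on a log axis for each of the 9 genes, with 1 point per library (MEF, IPS, V6.5, NTC, shGldc) and hollow points for values listed at 0. Nodal, Lefty2, and Foxh1 are at the floor in MEFs only, Cer1 in all libraries, and the points for Lefty1 spread from 0.888 to 37.8 FPKM.

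Among the ligands, Nodal had an FPKM of 93.0 in iPSCs, 52.0 in untreated V6.5 cells, 36.1 in NTC cells, and 46.2 in shGldc cells. In MEFs it was listed at 0. It was therefore a gene of the stem cell libraries, highest in iPSCs. The gene lies on the plus strand of chromosome 10 of mm10 (61417972 to 61425338), overlaps no annotated gene, and shares no 50-nt stretch with the transcripts of other genes. Its neighbour Eif4ebp2, a translation repressor gene 3.2 kb away, was at 33.2 in MEFs, 66.3 in iPSCs, and 84.8 to 118 in the V6.5 libraries, and Pald1, 34.4 kb away, was at 3.68 in MEFs and 25.6 to 51.9 in the stem cells, with neither highest in iPSCs. Both overlap other annotated genes. Gdf3, a Nodal-like ligand that also uses Cripto, had an FPKM of 0.105 in MEFs, 21.8 in iPSCs, 44.8 in untreated V6.5 cells, 52.9 in NTC cells, and 73.3 in shGldc cells. Its order among the stem cell libraries was not that of Nodal: iPSCs had the most Nodal and the least Gdf3, so that Nodal exceeded Gdf3 by 4.27-fold in iPSCs and by 1.16-fold in untreated V6.5 cells, whereas Gdf3 exceeded Nodal by 1.47-fold in NTC and 1.59-fold in shGldc cells. Such ratios within a library do not depend on how the libraries were scaled. Gdf3 lies on the minus strand of chromosome 6 (122605403 to 122610087), has 1.8% of its 50-nt stretches in common with transcripts elsewhere, and lies 16.3 kb from Dppa3, a maternal-effect gene also expressed in naive ES cells. Dppa3 was at 14.4 in iPSCs, 60.6 in untreated V6.5 cells, 11.7 in NTC cells, and 20.3 in shGldc cells. It was listed at 0 in MEFs. On its other side, 3.0 kb away, Apobec1, which encodes a cytidine deaminase, was at 7.01 in MEFs and between 0.613 and 4.90 in the stem cells.

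Tdgf1 had an FPKM of 0.137 in MEFs, 195 in iPSCs, 324 in untreated V6.5 cells, 237 in NTC cells, and 131 in shGldc cells. It ranked at number 237 of all genes in untreated V6.5 cells, and the MEF value corresponds to about 6.5 fragments. The lowest stem cell value was that of shGldc cells, 1.82-fold below NTC, which is under the 2-fold line. Relative to its ligand, Tdgf1 was 6.23 times the Nodal level in untreated V6.5 cells and 6.57 times in NTC cells, but 2.1 times in iPSCs and 2.83 times in shGldc cells. Of its 50-nt stretches, 8.9% also occur in the pseudogene Tdgf1-ps1. Acvr2b, which binds activins and Nodal as a type II receptor, was at 0.523 in MEFs, 5.58 in iPSCs, 12.3 in untreated V6.5 cells, 10.9 in NTC cells, and 6.08 in shGldc cells. Its order over the 5 libraries matched that of Tdgf1 except that iPSCs and shGldc cells were exchanged, with log2 ratios of shGldc over NTC of -0.86 for Tdgf1 and -0.84 for Acvr2b. Tdgf1 lies on chromosome 9 (minus strand, 110939603 to 110946158), and Acvr2b, which overlaps Gm47320, lies on the same chromosome (plus strand, 119402118 to 119434995).

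RefSeq promoter windows (GRCm38.p6, 250 bases before to 50 after the start) were found for 4 of the 9 genes, namely Acvr2b, Cer1, Nodal, and Tdgf1. The Tdgf1 window is the one shown, because it held 2 copies of the Klf and Sp factor motif GGGCGTGG, searched on both strands after the window had been read. Of all 32851 windows, 5.33% held at least 1 copy and 0.728% at least 2. The copy that begins 26 bases before the annotated start (chr9:110946166-110946195, written along the minus strand of the gene) is in capitals:
Tdgf1: ggccccgtaatGGGCGTGGggccccgtctc
The other copy begins 45 bases before the start. The Foxh1 motif AATNCACA, present in 3.6% of windows, was in none of the 4, and the short Smad motif CAGAC, present in 49.6%, occurred once in each window but that of Nodal. These are matches of letters in a short window and give no evidence of binding.

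The inhibitors Lefty1 and Lefty2 gave the largest differences between the stem cell libraries. Lefty1 had an FPKM of 1.16 in MEFs, 0.888 in iPSCs, 37.8 in untreated V6.5 cells, 3.54 in NTC cells, and 34.3 in shGldc cells. It was thus high in untreated V6.5 and shGldc cells, 10.7-fold below the untreated V6.5 level in NTC cells, and near the fibroblast level in iPSCs. Lefty2 was listed at 0 in MEFs and was at 0.367 in iPSCs, 17.4 in untreated V6.5 cells, 18.5 in NTC cells, and 22.2 in shGldc cells. All 3 V6.5 libraries therefore had a similar Lefty2 level, and only iPSCs stood apart from them. At the estimated depth, the iPSC values correspond to about 31.8 fragments of Lefty1 and 20.1 of Lefty2, above the floor of 3 fragments, and the NTC value of Lefty1 to about 166.

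**Figure D2:**
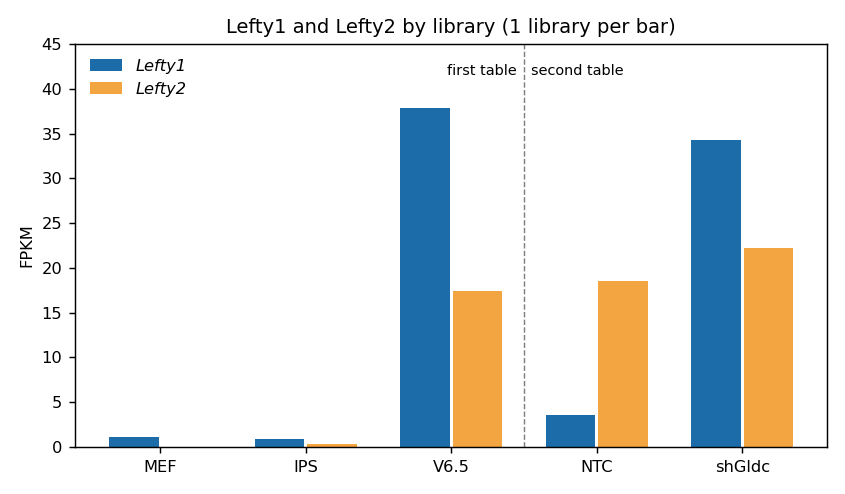
FPKM of Lefty1 and Lefty2 on a linear axis from 0, with 1 bar per gene and library and a dashed line between the separately made tables. Both genes are close to 0 in MEFs and iPSCs, and only Lefty1 is low in NTC cells, at 3.54 against 18.5 for Lefty2.

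The genes lie in tandem on the plus strand of chromosome 1 (Lefty2 from 180893108 to 180899103, Lefty1 from 180935022 to 180938400). Their coding sequences are of equal length, 1107 nt, and identical at 1017 positions (91.9%), with a longest identical run of 140 nt. Because the reads of such a pair can be assigned to the wrong copy, a stretch that tells the transcripts apart is shown beside one that does not. The 30 coding bases that differ most (coding positions 109 to 138, in exon 1, at chr1:180935218-180935247 for Lefty1 and chr1:180893292-180893321 for Lefty2) have 12 differing bases, in capitals:
Lefty1: ctcGATcaACcGccAGTcctggacaAGgcT
Lefty2: ctcAGCcaGGcCccCACcctggacaGCgcG
The longest identical run opens with these 30 bases, which span the junction of exons 2 and 3 at coding positions 493 to 522 of both genes and have no capitals:
Lefty1: tctaggctcgtgtccatccacgagagcggc
Lefty2: tctaggctcgtgtccatccacgagagcggc
Of all 50-nt stretches, 17.9% of those of Lefty1 also occur in Lefty2, and 12% of those of Lefty2 occur in Lefty1 or Gm44212. Part of each value is therefore uncertain, since how the authors' tools divided shared reads is not stated. Within a library, Lefty1 was 2.42 times Lefty2 in iPSCs, 2.17 times in untreated V6.5 cells, and 1.54 times in shGldc cells, but 0.191 times in NTC cells. NTC was the only stem cell library in which Lefty2 was the more abundant of the pair.

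Other genes near the pair did not follow this pattern. Sde2, 25.0 kb from Lefty2 on the side away from Lefty1, varied between 21.7 and 33.2 in the stem cells. Tmem63a, a membrane channel gene 3.9 kb beyond Lefty1, was highest in MEFs at 17.3, and was at 1.47 in iPSCs, 5.83 in untreated V6.5 cells, 2.72 in NTC cells, and 3.01 in shGldc cells. Sde2 and Tmem63a each overlap another annotated gene.

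**Figure D3:**
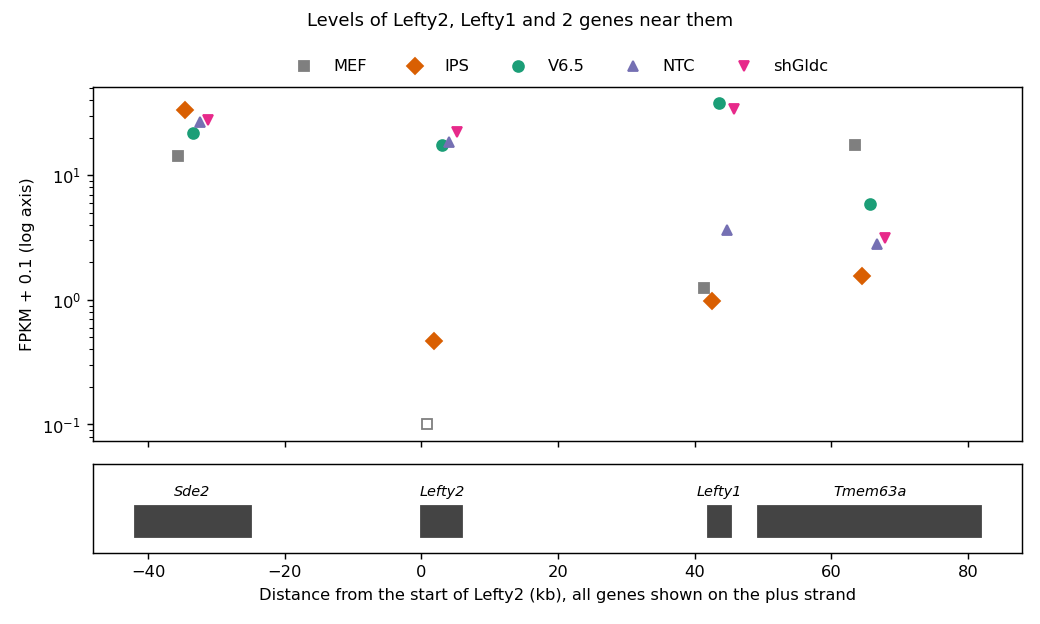
FPKM + 0.1 on a log axis for Lefty2, Lefty1, and 2 genes near them, above a map of these genes by distance in kb from the start of Lefty2 (points are spread sideways by library). Lefty1, from 41.9 to 45.3 kb, has its NTC point at 3.54 and its untreated V6.5 and shGldc points at 37.8 and 34.3, whereas the NTC and shGldc points of the other 3 genes lie close together.

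Smad2, the receptor-regulated Smad that carries the Nodal and activin signal, was at 6.30 in MEFs, 4.92 in iPSCs, 4.87 in untreated V6.5 cells, 3.67 in NTC cells, and 5.95 in shGldc cells. It was the only detected member with a fibroblast level as high as its stem cell levels, and it passed the 2-fold line in no comparison. Foxh1, the forkhead factor that recruits Smad2 and Smad3 to their targets, was listed at 0 in MEFs and was at 28.1 in iPSCs, 25.1 in untreated V6.5 cells, 51.6 in NTC cells, and 52.9 in shGldc cells. Its stem cell values were close within each table and differed about 2-fold between the tables, which were made separately. Smad2 lies on the plus strand of chromosome 18 (76241580 to 76310963) and Foxh1 on the minus strand of chromosome 15 (76668225 to 76669948).

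Against MEFs, 7 of the 8 members that passed the filter were at least 2-fold higher in untreated V6.5 cells and none was lower, where 30.3% of all 12840 genes compared were higher and 23.3% lower (53.7% in either direction). In iPSCs, 5 of the 7 members that passed were higher and none was lower, against 31.5% and 21.3% of 13032 genes (52.7% in either direction). The genes higher in both were Nodal, Gdf3, Tdgf1, Acvr2b, and Foxh1. These comparisons share the MEF library. The genes higher in both, and Lefty2, were below an FPKM of 1 in MEFs. They could pass the filter only through the stem cell library, so none could be called lower. The shares of all genes beside these counts include genes that could be called lower. The log2 ratio in untreated V6.5 cells was 10.42 for Tdgf1, the fourth highest of all genes compared, 7.78 for Gdf3, 4.91 for Lefty1, 4.31 for Acvr2b, and -0.37 for Smad2. In iPSCs it was 9.69 for Tdgf1, 6.74 for Gdf3, 3.19 for Acvr2b, and -0.35 for both Lefty1 and Smad2. No fold is given for Nodal, Lefty2, and Foxh1, which were listed at 0 in MEFs, and for the same reason no median over the members is given. The median log2 ratio of all genes was 0.25 in untreated V6.5 cells and 0.31 in iPSCs, and the counts of members were the same after it was subtracted.

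Between iPSCs and untreated V6.5 cells, 4 of the 8 members that passed were at least 2-fold lower in iPSCs and none was higher, against 7.44% lower and 10.1% higher among 12323 genes (17.5% in either direction). The median log2 ratio of the 8 was -0.88, and that of all genes 0.04, with a robust SD of 0.65. Lefty1 was 42.6-fold lower in iPSCs (log2 ratio -5.26) and Lefty2 47.5-fold lower (-5.23), ranks 4 and 5 from the lowest of all genes compared. Both Leftys were below an FPKM of 1 in iPSCs and passed the filter only through untreated V6.5 cells. The 3 genes below them, Ccl2, Mmp3, and Ccl7, picked here only for that rank, were listed at 0 in iPSCs, and Ccl2 and Ccl7, which encode chemokines, had a higher FPKM in MEFs (55.1 and 55.2) than in untreated V6.5 cells (10.2 and 4.999), whereas Mmp3 was at 2.13 in MEFs and 5.97 in untreated V6.5 cells. Acvr2b (-1.12) and Gdf3 (-1.04) passed the 2-fold line narrowly. Tdgf1 (-0.73), Nodal (0.84), Foxh1 (0.16), and Smad2 (0.01) did not pass it. Among the 4 stem cell libraries, iPSCs thus had the most Nodal with the least of both Leftys, and Nodal was 74.1 times the sum of Lefty1 and Lefty2 there, against 0.941 times in untreated V6.5 cells, 1.64 times in NTC cells, and 0.818 times in shGldc cells. With the fibroblast share subtracted from the V6.5 library, an alternative added after the data were seen, the count was still 4 lower and 0 higher.

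Between shGldc and NTC cells, 1 of the 8 members that passed was at least 2-fold higher and none was lower, against 8.97% higher and 7.68% lower among 11969 genes (16.7% in either direction), so the share of members past the line was near the background. The higher gene was Lefty1, at 9.68 times the NTC level (log2 ratio 3.24, rank 161 from the highest). Lefty2 had a log2 ratio of 0.26, Nodal of 0.35, Gdf3 of 0.47, Smad2 of 0.68, and Foxh1 of 0.04. Tdgf1 (-0.86) and Acvr2b (-0.84) had negative ratios that did not reach the 2-fold line. The median of the 8 was 0.31 and that of all genes 0.04, with a robust SD of 0.53. Set against untreated V6.5 cells, a ratio that crosses the tables, shGldc cells had 1 member higher (Foxh1, 1.08) and 2 lower (Tdgf1, -1.31, and Acvr2b, -1.0, at the line), where 9.89% of 12237 genes were higher and 13.9% lower (23.7% in either direction), and Lefty1 had a log2 ratio of -0.14. It was the NTC library that differed from both of the other V6.5 libraries in Lefty1, with a log2 ratio over untreated V6.5 cells of -3.38 (10.7-fold lower, rank 117 from the lowest of 12048 genes). In that comparison, which crosses the tables, 1 of 8 members was lower (Lefty1) and 1 higher (Foxh1, at 1.04), against 10.3% and 4.99% of all genes (15.2% in either direction). With 1 library each, a difference made by the shRNA cannot be told apart from a difference between these cultures.

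**Figure D4:**
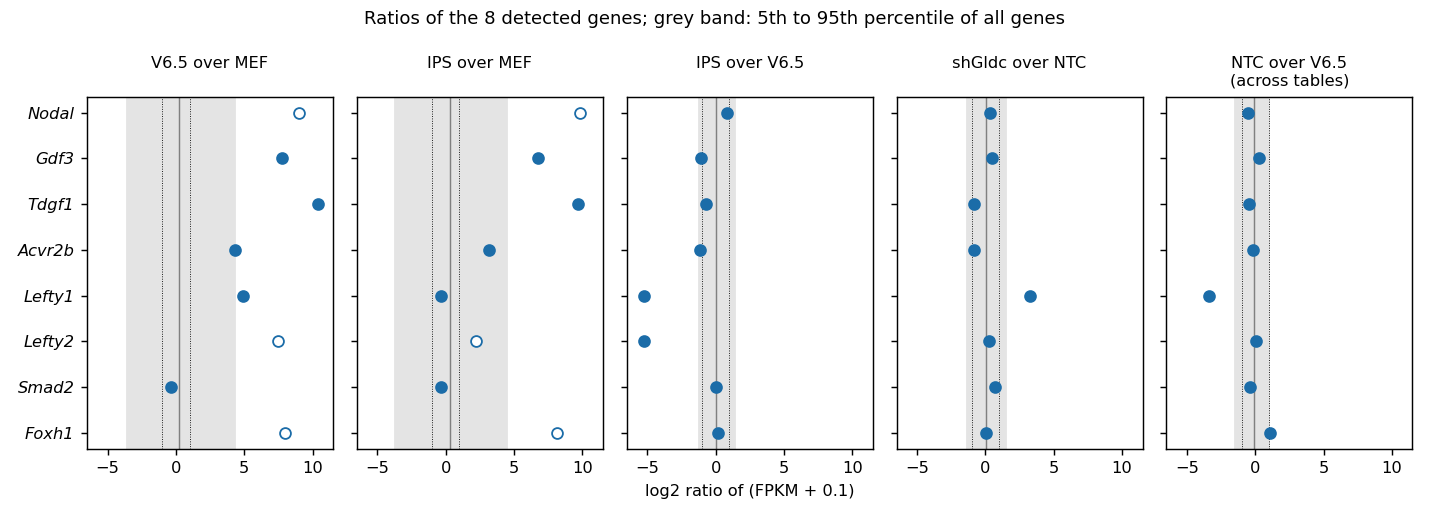
Log2 ratio of (FPKM + 0.1) of the 8 detected genes in 5 comparisons, with the 5th to 95th percentile of all genes as a grey band, their median as a grey line, and the 2-fold lines dotted. Hollow points have a value listed at 0. Lefty1 lies outside the band in every comparison except IPS over MEF, and Lefty2 lies outside it in V6.5 over MEF and in IPS over V6.5.

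The pattern of Lefty1, low in iPSCs and NTC cells and higher in shGldc than in NTC cells, was also looked for in other genes. Of the 13656 genes that reached 1 FPKM in any library, 4 were at least 8-fold lower than in untreated V6.5 cells in iPSCs and in NTC cells and also at least 8-fold higher in shGldc than in NTC cells, namely Lefty1, Bgn, Mup6, and BC048679. At 2-fold in place of 8-fold, 111 genes had the pattern, among them the fibroblast marker Col1a2. Bgn, a matrix proteoglycan gene, was at 1777 in MEFs, and Mup6 and BC048679 did not exceed 2.32 in any library. These ratios share the V6.5 and NTC libraries, and the limits were set with the values of Lefty1 known. By the distance between centred log2 profiles over the 5 libraries, the genes closest to Lefty1 were Mup6 (1.56), BC048679 (1.64), and Crygb (2.04), all with an FPKM of 2.32 or lower, and Lefty2 ranked at number 875 of 13655 with a distance of 4.28. Closest to Nodal were Tuba3a (0.47), AU018091 (0.63), and the tight junction gene Cldn6 (0.82). Tdgf1 was closest to the pluripotency genes Utf1 (0.62) and Nanog (0.79), with Gm7325 (0.79) between them. The profile of Gdf3 was nearest to those of Upp1 (0.49), Camsap3 (0.68), and Zscan10 (0.69), and Foxh1 ranked at number 10 for it with a distance of 1.15. The profiles cross the separately made tables.

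The other genes of the pathway were taken as a list of 45, of which 38 passed the filter in untreated V6.5 cells against MEFs, 7 higher and 15 lower, with a median log2 ratio of -0.44. These are 18.4% and 39.5% of the genes that passed, beside 30.3% higher and 23.3% lower among all genes, whose median was 0.25. Of the 8 other ligands, 6 were lower in untreated V6.5 cells than in MEFs and none was higher, and in iPSCs 7 were lower and 1, Inhbb, was higher. Tgfb3, a TGF-β ligand, was at 73.1 in MEFs and 0.831 in untreated V6.5 cells (-6.30), whereas the activin subunit gene Inhbb, at 7.41 and 10.5, had the highest ratio of the ligands (0.49). Among the 5 receptors and coreceptors that passed, 4 were lower, down to -5.18 for the TGF-β receptor gene Tgfbr2 (40.7 in MEFs and 1.02 in untreated V6.5 cells). The remaining one, Acvr1b, the type I receptor for activin and Nodal, was higher, at 3.35 in MEFs and 13.9 to 17.9 in the stem cells (2.12). Acvr1c, the other type I receptor that Nodal can use, was listed at 0 in all 5 libraries. Of the proprotein convertases that process Nodal, Pcsk6 was higher (2.36) and Furin lower (-1.50). Among the extracellular inhibitors, the activin antagonist Fst was lowest (-4.92), and Dand5, a relative of Cer1, was at 1.41 in MEFs and 2.51 in untreated V6.5 cells (0.79). Of the 6 Smads and partners, Smad3 was lower, at 15.0 and 6.16 (-1.27), and the other 5 were within 2-fold, up to 0.95 for Trim33. The 8 negative regulators ranged from -0.96 for Smurf1 to 1.44 for the corepressor gene Tgif1, and 2 of them were higher.

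Of the 10 target genes, 5 passed in untreated V6.5 cells against MEFs, with 3 higher and 1 lower. The higher genes were Eomes, a mesendoderm T-box gene (0.208 in MEFs and 5.48 in untreated V6.5 cells, log2 ratio 4.18), the organizer homeobox gene Gsc (1.91), and Fgf8, which was listed at 0 in MEFs and was at 1.122 in untreated V6.5 cells. The 3 higher genes were below an FPKM of 1 in MEFs and passed the filter only through untreated V6.5 cells. Id1, a BMP target listed for contrast, was lower (46.3 and 15.2, -1.61).

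In iPSCs against untreated V6.5 cells, 7 of the 35 listed genes that passed were higher (20.0%) and 4 were lower (11.4%), with a median of 0.07, beside 10.1% and 7.44% of all genes and a median of 0.04. In shGldc against NTC cells, 33 passed, 2 were higher, 3 were lower, and the median was 0.05. These are 6.1% and 9.1% of the genes that passed, near the 8.97% and 7.68% of all genes. Gdf11, a ligand of activin receptors, was among the higher genes, at 1.07 in NTC and 2.78 in shGldc cells (1.3), and the lower genes were Inhbb (-1.85), Tgfb1 (-1.84), and Id1 (-1.39). Id1 had an order opposite to that of Lefty1 in the stem cells, at 96.0 in iPSCs and 67.0 in NTC cells, against 15.2 in untreated V6.5 and 25.6 in shGldc cells. Inhbb was at 25.5 in iPSCs, 10.5 in untreated V6.5 cells, 9.95 in NTC cells, and 2.68 in shGldc cells. None of the receptors, inhibitors, convertases, Smads, or negative regulators that passed the FPKM filter was past the 2-fold line in this comparison, where they ranged from -0.76 for Fstl3 to 0.88 for Dand5. Fst, below the filter at 0.222 in NTC and 0.687 in shGldc cells, had a ratio of 1.29. The receptors ranged from -0.12 for Acvr1b to 0.55 for Tgfbr1, and the convertases had ratios of 0.51 for Furin and 0.20 for Pcsk6. The Smads and partners ranged from -0.71 for the inhibitory Smad7 to 0.07 for Smad3, and the negative regulators from -0.70 for Skil to 0.53 for Ski, both Smad corepressors. Without a known counting strand, the values of Acvr1b, Eomes, Fst, Fstl3, Furin, Pcsk6, Smurf1, Tgfb3, and Trim33 are uncertain in part, since each overlaps another annotated gene, as do Tuba3a and Camsap3 above.

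**Figure D5:**
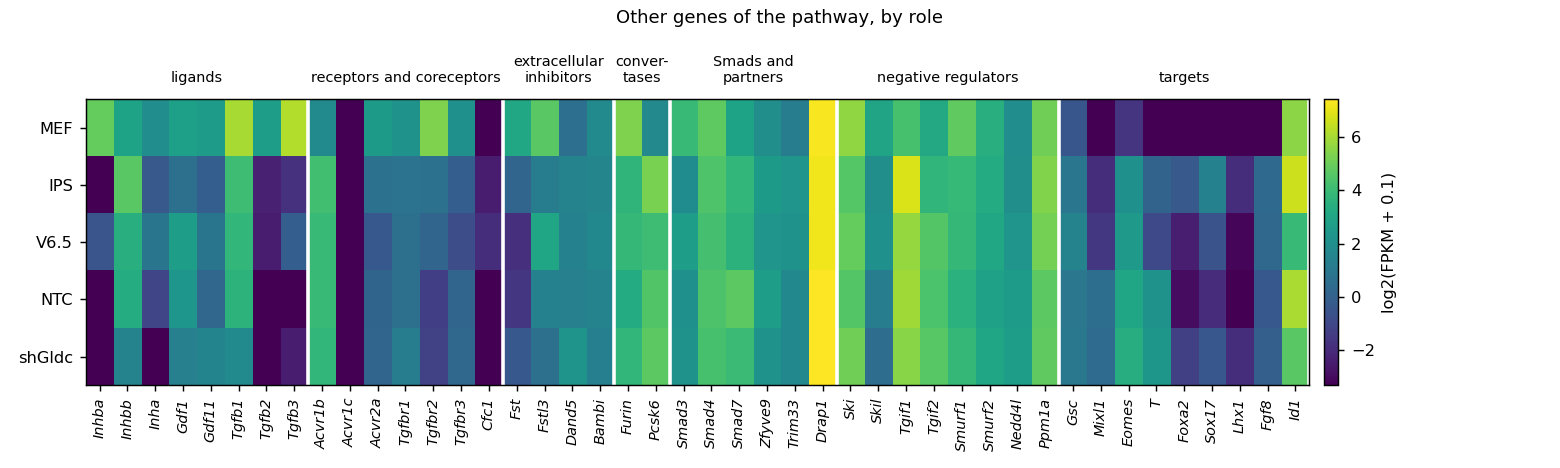
Log2(FPKM + 0.1) of 44 of the 45 other genes of the pathway in the 5 libraries, as a colour scale, grouped by role. Most ligands and most receptors are brightest in MEFs, Acvr1b is brighter in the stem cells, and most targets are dark there. Id1 is brightest in iPSCs (96.0 FPKM).

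Marker genes of other lineages also varied between the stem cell libraries. The 6 extra-embryonic endoderm markers summed to 30.4 in MEFs, 19.7 in iPSCs, 6.04 in untreated V6.5 cells, 4.10 in NTC cells, and 20.2 in shGldc cells, with none at 0 in a stem cell library. Lefty1, also expressed in the anterior visceral endoderm of the embryo, was high with this sum in shGldc cells and low with it in NTC cells, but high in untreated V6.5 cells, where the sum was low, and low in iPSCs, where the sum was high. The 6 primitive streak markers summed to 0.843 in MEFs, 7.69 in iPSCs, 9.11 in untreated V6.5 cells, 16.1 in NTC cells, and 20.3 in shGldc cells, with Mesp1 at 0 in the last. The 6 trophectoderm markers summed to 6.83, 107, 71.1, 52.5, and 76.9 in the same order. The highest single trophectoderm marker was at 62.4 in iPSCs, 63.0 in untreated V6.5, 45.8 in NTC, and 38.4 in shGldc cells. In these 4 libraries, 5, 3, 2, and 4 of the 6 trophectoderm markers reached 1 FPKM. The counts were 4, 2, 1, and 3 for the endoderm list and 2, 2, 4, and 5 for the primitive streak list. Whether cells of these types were present, and their part in the values of the members, was not tested. In bulk RNA, more cells of a type cannot be told apart from more RNA per cell.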

How the data were processed

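The authors extracted total RNA with TRIzol, mapped reads to mm10 with TopHat2 (2.1.0), assembled transcripts with StringTie (1.3.4d), and obtained expression with Ballgown. The submitters' processing notes list mm9 beside mm10. The authors deposited FPKM values in 2 separately made tables. The annotation, strand setting, and filters are not given in the sources used here. From the FPKM values, log2(FPKM + 0.1) differences were computed for genes that reached 1 FPKM in a library compared. Ratios of NTC or shGldc over untreated V6.5 cells cross the tables. A floor of 3 fragments was taken from the spacing of low values of 5723 single-transcript genes, and it covers counting error only. Gene models and transcripts were those of GENCODE M21 (mm10). Some values are not reported here, and 1 gene of the pathway list is not shown in its figure for that reason. No test was run, because each group is 1 library. The members and gene lists were chosen with earlier results of these data known. Named genes are the members, the extreme genes of each role, neighbouring genes, the 3 nearest profiles, and Gldc, and Tgfb1, Acvr1c, Gsc, Fgf8, Ccl2, Mmp3, Ccl7, Bgn, and Col1a2 were chosen after their values were seen. The ratio and depth scripts were tested on simulated data. Alternatives were other pseudocounts, scalings, filters, and control library. Python 3.11.15, numpy 2.4.6, pandas 2.3.3, Biopython 1.88, and matplotlib 3.10.9 were used.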

Additional observations from a re-analysis of the deposited data

Results flagged for a closer look

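Lefty1 was the only member whose ratio to MEFs had opposite signs in the stem cell lines, at 4.91 in untreated V6.5 cells and -0.35 in iPSCs, a difference of 5.26 on the log2 scale. The difference was not tested, since each group is 1 library. The iPSC ratio by itself is under the 2-fold line, and no error can be given for it. In size it is also below 0.59, the robust SD over all genes of the NTC over untreated V6.5 ratios. That SD is a spread over genes in another comparison, which crosses the tables, and not an error of this ratio.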

How the results depend on the processing

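The counts of members past the 2-fold line were the same or within 1 under pseudocounts of 1 and 0.01, both rescalings, and both filters, in all 5 comparisons. With untreated V6.5 cells in place of NTC as the control, 3 members passed in shGldc cells in place of 1 (Foxh1 higher, Tdgf1 and Acvr2b lower), and the log2 ratio of Lefty1 was reversed to -0.14, because NTC had the lower Lefty1 level. The pathway list then gave 11 genes in place of 5. With NTC as the control and no filter, the list gave 10. In iPSCs over untreated V6.5 cells, the list gave 7 genes with a pseudocount of 1 and 6 with an FPKM of at least 5, in place of 11, and the split of 7 higher and 4 lower was 5 and 5 after rescaling to the same FPKM sum. Of 192 ratios of single members under an alternative, 165 moved by less than 0.59, 26 by more (15 with a pseudocount of 1 and 10 with 0.01), and 1 was reversed. A ratio was called reversed only if it was at least 1 in size and changed sign. Smaller ratios that changed sign were not counted so, such as Nodal in shGldc cells (0.35 over NTC and -0.17 over untreated V6.5 cells). The levels of genes listed at 0 in MEFs limit the size of their ratios. No paired analysis was possible because each group holds 1 library.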
